A study of Mus musculus with 9 samples.

Results

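The mouse genes whose symbol is Zfp followed by a number were examined in fatty livers with and without a scavenger receptor knockout. The deposited table lists 329 such genes among 17442, and 191 of them had a mean of 50 or more normalised reads over the 9 livers. Zfp868 and Zfp869 were left out of the 191 by a rule written with earlier results of these livers known. The members were thus chosen by their mean level over all livers, which is given only as a description. A gene can pass that mean through 1 genotype alone. Zfp982 and Zfp871 did so through the knockout livers, and Zfp324 through the wild type. Of the other Zfp-numbered genes, 136 lay under the mean of 50. Just inside it stood Zfp111 at 50.4, Zfp799 at 50.5 and Zfp871 at 50.6, and just outside stood Zfp772 at 49.8, Zfp738 at 49.5 and Zfp532 at 48.4.

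The study sequenced liver RNA of male C57BL/6 mice, 5 of genotype Msr1-/- and 4 wild type. Msr1 encodes macrophage scavenger receptor 1, which takes up modified lipoproteins. Both genotypes had received the high fat-cholesterol diet for 16 weeks and carry the disease label NAFLD, non-alcoholic fatty liver disease, so every liver compared here is from a fed, diseased animal. The labels do not say which part of Msr1 was deleted or in which cells, and each liver is 1 animal.

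Zfp stands for zinc finger protein. Most of these genes encode C2H2 zinc finger proteins, in which repeated fingers, each folded around a zinc ion, read DNA bases. Many carry near their start a KRAB domain, which recruits the corepressor Trim28 (also called KAP1) and through it the histone methyltransferase Setdb1, and which is known for silencing retroelements and for guarding imprinted loci. KRAB zinc finger genes arose by repeated local duplication and lie in clusters of near relatives. A minority of Zfp-numbered genes do other work, such as binding RNA or marking stalled ribosomes.

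Liver identity and depth were checked first. Between 15006773 and 18238932 reads per liver were recovered. All 7 hepatocyte markers were measured, and their summed normalised count was 1808000 to 2489000 in Msr1-/- livers and 1377000 to 2110000 in wild type. Msr1 had 157, 153, 209, 186 and 172 normalised reads in Msr1-/- livers, against 256, 201.5, 460.5 and 194 in wild type, so the genotypes overlapped. It averaged 175 ± 23.0 (SD, n = 5) in Msr1-/- livers and 278 ± 125 (SD, n = 4) in wild type. The log2 difference was -0.58 (two-sided exact permutation test, p = 0.0476, the smallest possible being 0.0159), and without wild type 3 it was -0.31 with an exact p of 0.107. Msr1 reads thus remained in every liver labelled Msr1-/-, and without the position of the deletion they do not check that label. Wild type 3 stood apart, at -88.7 on the first principal component (41% of the variance), against -8.3 to 27.6 for the other 8 livers. Many results below are given with and without it. In these bulk samples, fewer cells of a type and less RNA per cell cannot be told apart.

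Between Msr1-/- and wild-type livers, 1 of the 191 Zfp-numbered genes passed the test. Zfp992 was 2.9-fold higher in Msr1-/- livers, and 0 members were called lower. The test was limma on log2(value + 1) over the 12937 genes with a mean of 10 or more, which all 191 members reached, with a Benjamini-Hochberg adjusted p under 0.05. Fold changes are on that scale and understate those of weakly expressed genes. Over all genes tested it called 1.37%, 0.665% as higher and 0.703% as lower, so 1 call among 191 is close to the background. At an unadjusted p under 0.05, 5 members were higher and 6 lower, where 7.3% and 8.0% of all genes tested were.

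Other tests and the fit without wild type 3 differed in how many members and genes they called. edgeR's quasi-likelihood test on the recovered reads called Zfp992 and 0 members lower, with 0.572% of all genes higher and 0.858% lower by it (1.43% together). DESeq2 called 3 members higher and 4 lower (all genes, 2.37% and 3.6%, 5.98% together). On simulated counts 19.7% of DESeq2's calls were false, against 7.53% for limma and 7.84% for edgeR. That was a single draw of independent genes with no liver set apart, so these are not the false shares in the real livers. Without wild type 3, limma called 2 higher and 2 lower (all genes, 2.59% and 2.32%, 4.91% together). Zfp992 and Zfp982 (the latter with a wild-type mean of 30.75) were the higher pair and Zfp930 and Zfp622 the lower pair. edgeR without that liver called the same number, 2 and 2 (all genes, 2.37% and 2.75%, 5.12% together), and DESeq2 called 2 and 5 (all genes, 4.2% and 4.06%, 8.26% together). Array weights in limma gave 2 higher and 3 lower (all genes, 2.14% and 1.96%, 4.1% together).

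The differences among the 191 members were small. The log2 difference lay within 0.2 of zero for 139 members (72.8%), against 60.3% of all genes with a mean of 50 or more, and it exceeded 1 for 3 members (1.57%), against 2.29% of those genes. Of these 3, Zfp982 reached the mean of 50 only through its Msr1-/- livers (mean 66.9, against 30.75 in wild type). The spread between livers of 1 genotype was much the same in both sets, with a median SD of 0.27 log2 units for the members and 0.25 for all genes of that level. Positive differences were fewer than negative ones, at 76 of 191 (39.8%) with a median of -0.056, whereas 55.9% of genes of that level were positive with a median of 0.031. These counts are descriptions without a test, and their size moved with single livers. Without wild type 3, 51 members were positive and the median was -0.115, and without wild type 2, 94 were positive and the median was -0.002. Leaving out wild type 3 turned the sign of 41 members, 33 of them to negative.

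**Figure D1:**
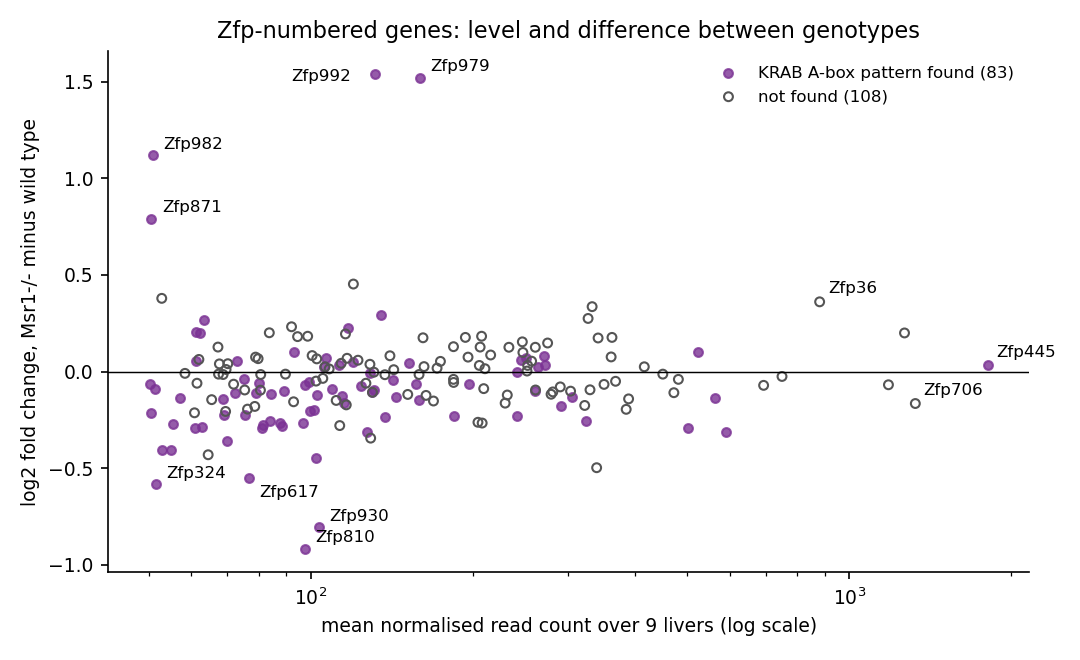
Each point is 1 of the 191 Zfp-numbered genes, by its mean normalised read count over the 9 livers (log axis) and its log2 fold change, Msr1-/- minus wild type. Filled points encode the KRAB pattern (83 genes) and open points do not (108); most lie near 0, and Zfp992, Zfp979 and Zfp982 lie above 1.

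The 3 largest differences belonged to neighbours on chromosome 4, all with the KRAB pattern. Zfp992 (chr4:146449023-146470292, mm10) had 239.5, 204.5, 127, 172 and 177 normalised reads in Msr1-/- livers, against 102, 66.5, 34.5 and 60.7 in wild type. All 5 Msr1-/- values lay above the highest wild-type value. The means were 184 ± 41.7 (SD, n = 5) in Msr1-/- livers and 65.8 ± 27.6 (SD, n = 4) in wild type, a log2 difference of 1.54 with a standard error of 0.28 and a limma adjusted p of 0.0293. The call was lost on leaving out Msr1-/- 1, 2, 4 or 5 or wild type 2 or 4, with limma adjusted p up to 0.0835, and the difference then stayed between 1.43 and 1.57. With any 1 liver left out the difference ran from 1.27 to 1.78. The lowest was the fit without wild type 3 (limma adjusted p 0.00994). Of the 50-base words in its longest coding transcript, 43.7% recur in transcripts of other genes, chiefly Zfp991, Znf41-ps and Zfp993, so reads of these relatives may be split or shared.

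Zfp982 (chr4:147492417-147513486) had 94.3, 69.5, 48.4, 71.3 and 51.1 normalised reads in Msr1-/- livers, against 36.4, 25.3, 42.4 and 19.0 in wild type. Here too the genotypes did not overlap, although the lowest Msr1-/- liver stood close to the highest wild-type one. Only 6 of the 191 members had genotypes that did not overlap, 2 higher and 4 lower, while 3.3% of all genes tested did not overlap and were higher and 3.99% were lower (7.29% together). Of the 2 higher, Zfp982 is a member only through its Msr1-/- livers, its wild-type mean being 30.75. The log2 difference of Zfp982 was 1.12 with a standard error of 0.28, and its limma adjusted p was 0.0763 with all livers and 0.0201 without wild type 3. Zfp979 (chr4:147611937-147642513) had 369, 268, 149.8, 146 and 158 normalised reads in Msr1-/- livers, against 146.5, 122, 36.9 and 36.05 in wild type. Its genotypes met at about 146, and each genotype split into higher and lower livers. Its log2 difference was 1.52 with a standard error of 0.46 and a limma adjusted p of 0.137, and 1.22 with 0.134 without wild type 3. Of its 50-base words 24.6% recur in other genes, and of those of Zfp982 11.5% do.

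The chromosome 4 window from 1 Mb before Zfp992 to 1 Mb after Zfp979 (chr4:145449023-148642513), chosen after these values were seen, held 26 tested genes. Its 7 Zfp-numbered genes included the 3 around which the window was drawn. Their median log2 difference of 1.12, the value of Zfp982, thus follows largely from that choice. Of the 7, 4 exceeded 1. The fourth was Zfp993, which lies under the mean of 50 and is not among the 191, with 53.3 ± 15.6 (SD, n = 5) normalised reads in Msr1-/- livers and 15.9 ± 2.41 (SD, n = 4) in wild type. Its log2 difference was 1.64 and its limma adjusted p 0.0204, and the call was kept in 5 of the 9 fits that left out a liver and lost without Msr1-/- 1, 2, 4 or 5, with an adjusted p of up to 0.0671. The remaining 3 differed by 0.38 (Zfp991), -0.36 (Zfp984) and -0.36 (Zfp933), none of them called. Of the 19 genes with other names in the window, limma called 0, edgeR 0 and DESeq2 0, with 2 at an unadjusted p under 0.05 (15.3% of all genes tested). Their median difference was 0.015.

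**Figure D2:**
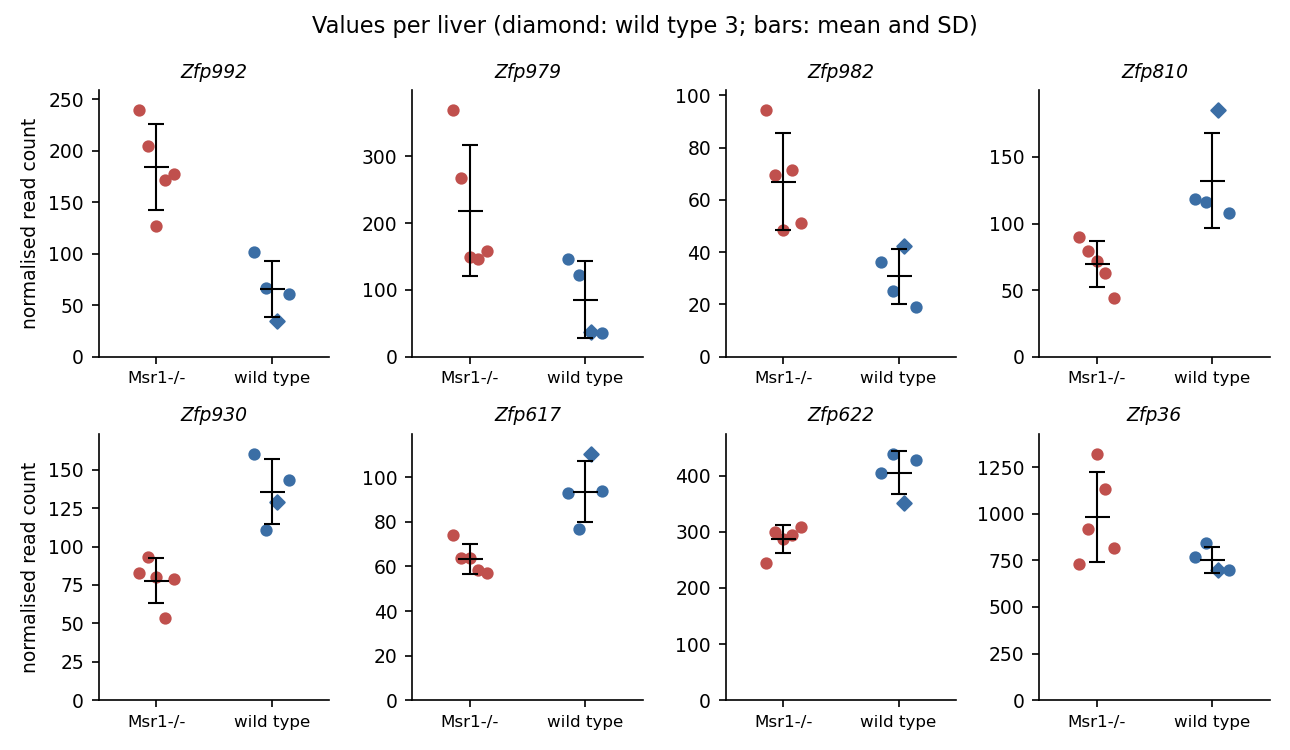
Normalised read counts of 8 Zfp-numbered genes in each liver, Msr1-/- (red) left of wild type (blue), with the mean and SD as bars and wild type 3 as a diamond. The Msr1-/- livers lie above all wild-type livers for Zfp992 and Zfp982 and below them for Zfp810, Zfp930, Zfp617 and Zfp622, while the genotypes overlap for Zfp979 and Zfp36.

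At the lower end 4 members stood apart without passing limma's threshold. Of these, Zfp930 and Zfp617 lie on chromosome 8, as does Msr1 (chr8:39581685-39642673). The part of that position in their differences was not tested. Zfp810 (chr9:22276748-22307648), with the KRAB pattern, had 90.1, 79.3, 72.1, 63.15 and 44.1 normalised reads in Msr1-/- livers, against 119, 116, 185 and 108 in wild type. Every Msr1-/- liver was below every wild-type liver, and wild type 3 was far above the other wild-type livers. The log2 difference was -0.92 with a standard error of 0.23 and a limma adjusted p of 0.0802, and -0.74 with 0.0698 without wild type 3. Zfp930 (chr8:69209038-69230536), also with the KRAB pattern, had 82.7, 93.0, 80.4, 53.8 and 79.15 normalised reads in Msr1-/- livers, against 160.4, 111, 129 and 143 in wild type. The genotypes did not overlap, and the wild-type livers spread evenly. Its log2 difference was -0.81 with a standard error of 0.18 and a limma adjusted p of 0.0579, which was 0.0355 without wild type 3.

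Zfp622 (chr15:25984366-25998481) is a small zinc finger protein without a KRAB domain, whose human counterpart binds the large ribosomal subunit. It had 245, 299, 288, 295 and 308 normalised reads in Msr1-/- livers, against 404, 439, 351.5 and 427 in wild type. All Msr1-/- livers lay below all wild-type livers, of which wild type 3 was the lowest. The log2 difference was -0.50 with a standard error of 0.115, and the limma adjusted p was 0.0618 with all livers and 0.0183 without wild type 3. Zfp617 (chr8:71908635-71934629), with the KRAB pattern, had 74.2, 63.6, 63.9, 58.5 and 57.1 normalised reads in Msr1-/- livers, against 93.0, 77.0, 110.6 and 93.9 in wild type. Its genotypes came close at 74.2 and 77.0 without meeting. The log2 difference was -0.55 with a limma adjusted p of 0.114. Exons of Zfp617 overlap those of Zfp882 on the same strand, and Zfp882 differed by 0.53 the other way, with a limma adjusted p of 0.258. Of the 50-base words of Zfp617, 44.0% recur in other genes, chiefly Gm18180, Spc24 and Timm17a.

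The next members in size overlapped between genotypes, and none was called by limma. Zfp871 differed by 0.79 (adjusted p 0.297), with 44.0 to 92.2 normalised reads in Msr1-/- livers and 17.9 to 54.9 in wild type. Zfp574 differed by 0.45 (adjusted p 0.173) and Zfp974 by 0.38 (adjusted p 0.43). Below zero followed Zfp324 at -0.58 (adjusted p 0.315) and Zfp157 at -0.45 (adjusted p 0.387). Zfp157 lay between 68.5 and 117.6 in Msr1-/- livers, and in wild type at 74.5 in wild type 3 and between 126.2 and 147 in the other 3 livers. Without wild type 3 its difference was -0.66 with a limma adjusted p of 0.0559.

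The 250 bases before the transcription start are shown for the 4 of these genes that RefSeq's promoter table (GRCm38.p6) holds, since Zfp979 and Zfp982 had positive differences and Zfp810 and Zfp622 negative ones. Capitals mark the CCAAT box (CCAAT or ATTGG) and the GC box (GGGCGG or CCGCCC), searched on both strands, and in Zfp979 an ATTGG and a GGGCGG overlap.
Zfp979, chr4:147642509-147642758, minus strand: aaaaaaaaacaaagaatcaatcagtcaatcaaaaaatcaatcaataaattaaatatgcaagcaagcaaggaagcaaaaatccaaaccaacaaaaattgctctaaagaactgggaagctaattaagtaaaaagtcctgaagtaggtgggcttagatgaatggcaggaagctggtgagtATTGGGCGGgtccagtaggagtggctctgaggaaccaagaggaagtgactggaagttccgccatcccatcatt
Zfp982, chr4:147442864-147443113, plus strand: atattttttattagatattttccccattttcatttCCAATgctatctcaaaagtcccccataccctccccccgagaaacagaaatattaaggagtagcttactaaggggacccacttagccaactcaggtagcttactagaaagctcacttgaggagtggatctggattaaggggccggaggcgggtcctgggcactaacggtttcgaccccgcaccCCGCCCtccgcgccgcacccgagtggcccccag
Zfp810, chr9:22307639-22307888, minus strand: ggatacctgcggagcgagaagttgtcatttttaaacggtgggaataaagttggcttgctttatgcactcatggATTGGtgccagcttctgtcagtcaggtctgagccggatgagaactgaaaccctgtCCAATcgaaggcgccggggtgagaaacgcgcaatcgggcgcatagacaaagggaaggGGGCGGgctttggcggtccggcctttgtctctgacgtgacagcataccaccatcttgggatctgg
Zfp622, chr15:25984116-25984365, plus strand: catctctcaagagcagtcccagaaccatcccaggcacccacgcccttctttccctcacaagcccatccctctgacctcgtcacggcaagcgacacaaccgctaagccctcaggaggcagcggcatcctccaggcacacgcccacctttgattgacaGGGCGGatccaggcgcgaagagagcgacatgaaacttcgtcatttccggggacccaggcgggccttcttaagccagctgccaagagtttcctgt

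Each of the 4 windows held 1 GC box. The CCAAT box was found once in Zfp979, once in Zfp982 and at 2 places in Zfp810, and no match was found in Zfp622. The G and C content was 39.6% in Zfp979, 52.4% in Zfp982, 54.8% in Zfp810 and 60.0% in Zfp622. Aligned in pairs, the windows were 46.4% to 51.0% identical, and the pair on chromosome 4 was no more alike (46.4%) than the others. RefSeq starts Zfp982 49.3 kb before the GENCODE start used for its coordinates, so this window lies away from that start. Among the 159 members with a window, 50.3% held a CCAAT box and 49.1% a GC box, against 34.5% and 33.0% of all 27025 gene windows, and 5.03% held a TATA box (TATAAA or TTTATA), against 13.0%. The 27025 windows were not limited to genes expressed in these livers, and no set of matched level was compared. These shares therefore do not show what is particular to the members.

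What the proteins share was read from translated transcripts. A KRAB A-box pattern was found in 83 members and not in 108. The KRAB members carried a median of 11 C2H2 fingers and the others 8, over all 191 the median was 10 and the highest number 36 (Zfp142), and 5 members had no C2H2 finger by the pattern. Zfp36 was 1 of these 5 and holds fingers of the CCCH kind instead. Per kilobase of exon, the members' median level was 27.9 normalised reads, against 67.7 for all genes with a mean of 50 or more, and it was 25.1 for the KRAB members and 30.8 for the others.

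Most KRAB members had slightly negative differences. Of the 83, 24 were positive (28.9%) with a median log2 difference of -0.11, and of the 108 without the pattern, 52 were positive (48.1%) with a median of -0.011. The wild-type livers differed widely among themselves. The median KRAB member deviated from its 9-liver mean by 0.046, -0.092, -0.08, -0.031 and -0.048 log2 units in Msr1-/- livers 1 to 5, against 0.18, 0.225, -0.215 and 0.076 in wild type 1 to 4. Wild type 3 lay below all Msr1-/- livers and the other 3 wild-type livers above them. Without wild type 3, 16.9% of KRAB members were positive with a median of -0.2, and 34.3% of the others with a median of -0.08. Quantile scaling gave 36.1% and 56.5%, and turned the median of the members without the pattern to 0.039. No difference between the KRAB members and the others was tested, since the members were chosen with results known.

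**Figure D3:**
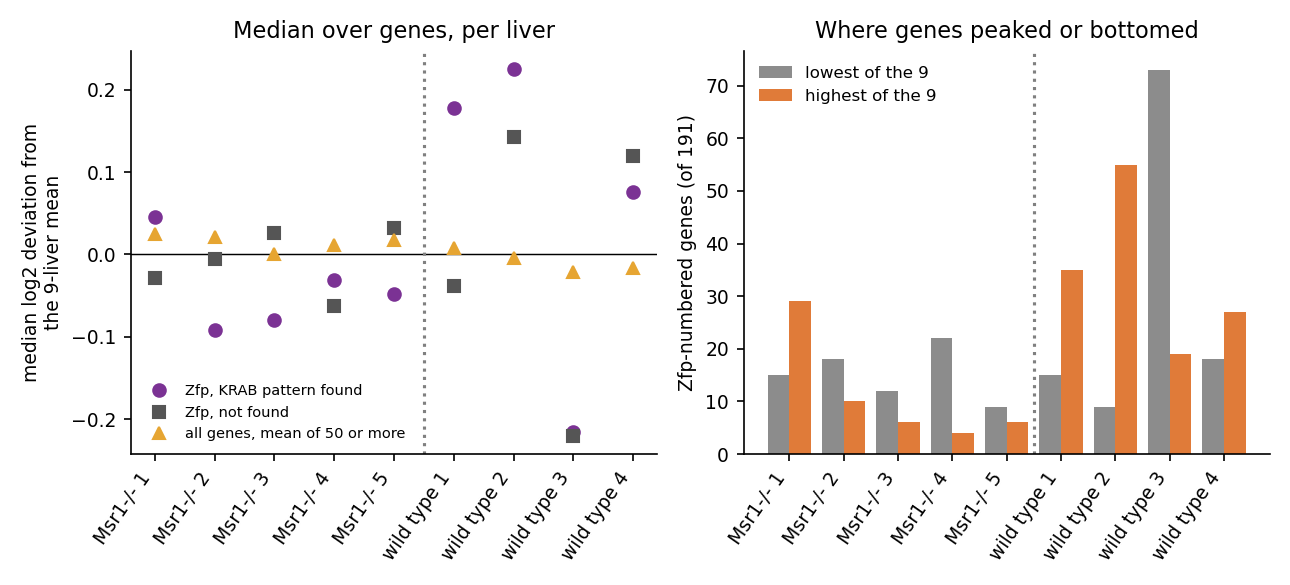
Left, the median log2 deviation from the 9-liver mean in each liver for KRAB-pattern members, other members and all genes with a mean of 50 or more; right, in how many of the 191 members each liver was the lowest or the highest of the 9. Wild type 3 holds the lowest value of 73 members and wild type 2 the highest of 55, and the 5 Msr1-/- livers lie between them.

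The spread among wild-type livers was also seen over all 191 members. Over all 191 members, the median deviation lay between -0.056 and 0.023 in Msr1-/- livers, and was 0.072, 0.18, -0.215 and 0.089 in wild type 1 to 4. Wild type 3 held the lowest value of the 9 livers for 73 members, and wild type 2 the highest for 55. With TMM scaling the median deviation of wild type 3 was -0.226. Its normalised total was the smallest, 13326300 against 15599900 to 19024800 in the other livers. As a share of that total the members held 0.25% in wild type 3, 0.218% to 0.262% in the other wild-type livers and 0.193% to 0.239% in Msr1-/- livers. The low position of wild type 3 thus depends on the scaling. The median over all genes with a mean of 50 or more moved by no more than 0.025 in any liver. Scaling by 1 size factor per library tends to hold that median near 0. It therefore cannot show whether the spread is particular to these members. Wild type 3 also stood apart on the first principal component, which was taken over all genes tested. Counts of lowest and highest livers are not given for all genes. Several other measures moved with wild type 3 and with genotype. Kupffer cell markers, of which 12 of 12 were measured and none was at 0, summed to 5331 to 7128 normalised reads in Msr1-/- livers and 8604 to 18390 in wild type, the highest being wild type 3. Differences were negative for 11 of the 12, and limma called 2 lower, where it called 0.703% of all genes tested lower. Stellate cell markers summed to 3040 to 3625 in Msr1-/- livers and 3441 to 7432 in wild type, again with wild type 3 highest. Differences were negative for all 6, and none of the 6 was called. The stellate sums thus overlapped between genotypes, while the Kupffer sums did not. Sums of B and plasma cell, neutrophil and cholangiocyte markers did not overlap either. B and plasma cell markers summed to 211.7 to 388.1 in Msr1-/- livers and 578.2 to 971.0 in wild type. Differences were negative for all 7, and 1 was called lower. Neutrophil markers summed to 55.1 to 112.3 in Msr1-/- livers and 129.0 to 275.4 in wild type, with differences below zero for all 3 genes tested and 0 called. Cholangiocyte markers summed to 28.6 to 57.3 in Msr1-/- livers and 66.5 to 169.5 in wild type, and Krt19 was listed at 0 in at least 1 liver. The differences of the 2 tested were negative, and 1 of them was called lower. The sums overlapped for T cells, at 71.0 to 144.3 in Msr1-/- livers and 96.5 to 191.4 in wild type, and for sinusoidal endothelium, at 3167 to 3720 in Msr1-/- livers and 3277 to 3950 in wild type. limma called 0 of 5 T cell, 0 of 7 sinusoidal endothelial and 0 of 7 hepatocyte genes. Differences were negative for all 5 T cell and 6 of the 7 endothelial genes, and positive for 6 of the 7 hepatocyte genes. Mitochondrially encoded genes held 8.65% to 13.8% of the normalised total in Msr1-/- livers and 7.54% to 12.3% in wild type, and ribosomal protein genes 0.895% to 1.01% in Msr1-/- livers and 1.22% to 1.51% in wild type. The part of these measures in the members' differences was not tested.

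In Zfp445, Zfp809 and Zfp598, 3 of the 5 highest members per kilobase of exon, wild type 2 was the highest and wild type 3 the lowest of the 9 livers. Zfp445, a KRAB protein that guards genomic imprints, had 1664, 1834, 1867, 1963 and 1438 normalised reads in Msr1-/- livers, against 1532, 3415, 1207 and 1333 in wild type. The 5 Msr1-/- livers were alike, and wild type 2 alone was far above the others. The log2 difference was 0.033 with a standard error of 0.26 and a limma adjusted p of 0.975. Zfp809, a KRAB protein that silences murine leukaemia virus-type retroelements, had 574, 465, 538, 554 and 458 normalised reads in Msr1-/- livers, against 442, 1078, 389 and 561 in wild type. Zfp598, a ubiquitin ligase that acts on collided ribosomes, had 601, 624, 782, 572 and 734 in Msr1-/- livers, against 591, 1081, 435 and 818 in wild type. The limma adjusted p was 0.868 for Zfp809 and 0.931 for Zfp598.

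Per kilobase of exon, the 5 highest members were Zfp706 at 266 normalised reads, Zfp36 at 254, Zfp445 at 244, Zfp809 at 190 and Zfp598 at 178. Zfp706 encodes a very short protein with a single finger, and 38.9% of its 50-base words recur in other transcripts. It averaged 1256 ± 84.1 (SD, n = 5) in Msr1-/- livers and 1415 ± 190 (SD, n = 4) in wild type, a log2 difference of -0.165 with a limma adjusted p of 0.554. Zfp36 encodes tristetraprolin, which binds AU-rich elements of cytokine mRNAs and speeds their decay. It had 730.2, 919.9, 1322, 1134 and 816.5 normalised reads in Msr1-/- livers, against 768, 841, 697 and 698 in wild type. The Msr1-/- livers at 1322, 1134 and 919.9 lay above all wild-type livers, and the other Msr1-/- livers lay inside the wild-type range. The log2 difference was 0.36 with a standard error of 0.17 and a limma adjusted p of 0.345.

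Of 21 Zfp-numbered genes listed for a known role, 20 were members, the exception being Zfp516 at a mean of 47.8. limma called 0 of the 20 and edgeR 0, and DESeq2 called 1 lower, which was Zfp622, while 2 were lower at an unadjusted p under 0.05. Of all genes tested, DESeq2 called 3.6% lower, and 8.0% were lower at that unadjusted p. The median log2 difference of the 20 was -0.013, with 9 positive. Zfp217, whose human counterpart is amplified in breast cancer, differed by -0.34 (limma adjusted p 0.289), at 115 ± 14.0 in Msr1-/- livers (SD, n = 5) and 147 ± 21.8 in wild type (SD, n = 4). Zfp91, a ubiquitin ligase of NF-kB signalling, differed by 0.2 (adjusted p 0.627), and Zfp692, whose human counterpart binds the promoter of a gluconeogenic enzyme, by 0.175 (adjusted p 0.88). The differences of Zfp143, an activator bound at promoters, and Zfp148, which binds GC boxes, were each -0.013. Zfp568, a KRAB repressor of a placental Igf2 transcript, differed by -0.045, and Zfp207, a spindle assembly protein, by -0.068. Apart from Zfp36 and Zfp622, given above, the rest of the list lay between -0.14 (Zfp809) and 0.2 (Zfp335).

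**Figure D4:**
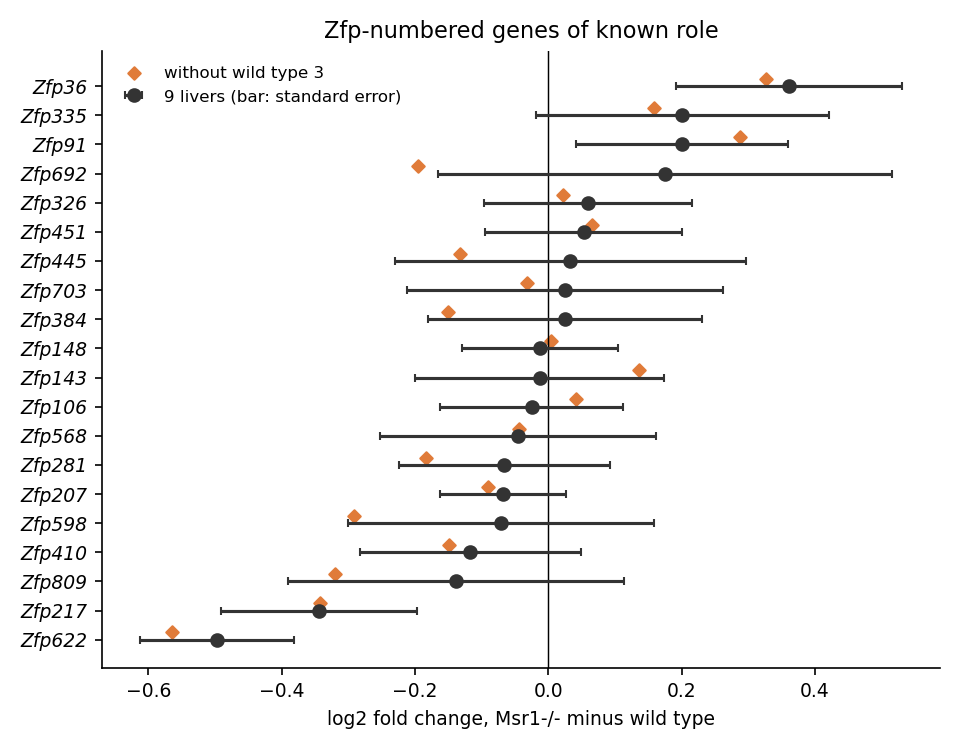
Log2 fold changes, Msr1-/- minus wild type, of the 20 members with a listed known role; circles use all 9 livers with standard error bars and diamonds leave out wild type 3. The values run from -0.50 for Zfp622 to 0.36 for Zfp36, and Zfp692 and Zfp445 are among those that fall below 0 without wild type 3.

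The partners that KRAB proteins work through were followed with a list of 37 corepressor genes, of which 35 were tested. limma, edgeR and DESeq2 each called 0 of them, and 2 were lower at an unadjusted p under 0.05, where 8.0% of all genes tested were. Their median log2 difference was 0.017, with 19 positive. Trim28, the hub of the complex, averaged 739 ± 75.9 in Msr1-/- livers and 734 ± 151 in wild type, and Setdb1 averaged 382 ± 28.1 in Msr1-/- livers and 382 ± 65.8 in wild type (SD, n = 5 and n = 4). The log2 differences were 0.027 with a standard error of 0.15 for Trim28 and 0.017 with 0.13 for Setdb1. The smallest p values belonged to the DNA methyltransferase Dnmt3a at -0.40 (limma adjusted p 0.178) and the histone deacetylase Hdac1 at -0.31 (adjusted p 0.219). Chd4, the remodeller that Zfp410 is known to activate, differed by -0.024, and Zfp410 itself by -0.12 (adjusted p 0.823).

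Other families of zinc finger genes gave 2 calls, both lower and both Zbtb genes, among 39 Zbtb genes tested, where 0.703% of all genes tested were called lower. Zbtb4, which binds methylated DNA, had 188, 180.1, 178, 187 and 167 normalised reads in Msr1-/- livers, against 277, 279.6, 304 and 264 in wild type. The genotypes lay far apart compared with their spread, with a log2 difference of -0.64, a standard error of 0.1 and a limma adjusted p of 0.0206. That call was kept in 4 of the 9 fits that left out a liver and lost without Msr1-/- 2, 3, 4 or 5 or wild type 2, with an adjusted p of up to 0.0671. Zbtb7c was sparse, at 5.62 ± 3.51 (SD, n = 5) in Msr1-/- livers and 24.2 ± 3.77 (SD, n = 4) in wild type, with a limma adjusted p of 0.0455, and was called in 1 of those 9 fits, the one without wild type 3, with an adjusted p of up to 0.102 in the others. By limma and edgeR, 0 genes were called among 8 Zkscan, 8 Zscan and 13 Klf genes and 24 Zfp symbols with letters after the number, and DESeq2 called 0 of them too. In the last of these groups 1 gene had an unadjusted limma p under 0.05, as did 15.3% of all genes tested. The median log2 difference was 0.098 for Zkscan, 0.05 for Zscan, -0.018 for Klf and 0.077 for the lettered Zfp genes.

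**Figure D5:**
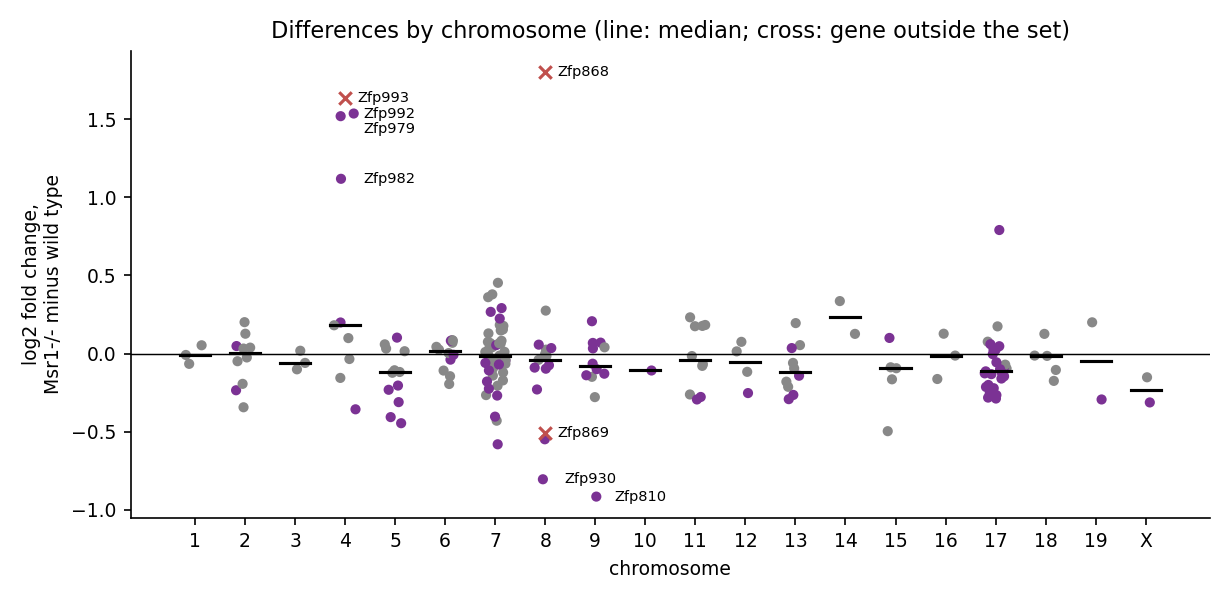
Log2 fold changes, Msr1-/- minus wild type, of the 191 members by chromosome, with KRAB-pattern members in purple, other members in grey and a line at each chromosome's median. Crosses are Zfp868 and Zfp869, which the rule leaves out, and Zfp993, which lies under the mean of 50; members outside chromosomes 4, 8, 9 and 17 stay between -0.58 and 0.45.

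By position, 113 members lay within 1 Mb of another member, and 19 clusters of 3 or more members held 101 of the 191 and 62 of the 83 with the KRAB pattern. The largest, on chromosome 17 (chr17:21008903-23193252), held 17 members, 16 with the pattern. Of these 17, 15 were negative, with a median log2 difference of -0.13, a range of -0.29 (Zfp983) to 0.06 (Zfp943) and 0 called by limma, and without wild type 3 the median was -0.25. On chromosome 7 (chr7:41633203-43313294) all 5 members were negative, with a median of -0.18, and -0.46 without wild type 3. In that cluster Zfp715 had 230.0, 278, 293, 222 and 291.5 normalised reads in Msr1-/- livers, against 305, 521, 144 and 335 in wild type. Wild type 3 was the lowest and wild type 2 the highest liver, with all Msr1-/- livers between. Another chromosome 7 cluster (chr7:6131491-7121488) had 3 members, all positive, with a median of 0.15. All 3 members were negative on chromosome 9 (chr9:22055411-22307648, median -0.28, and -0.69 without wild type 3). The same held for 3 on chromosome 18 (chr18:23954692-24020810, median -0.105, and -0.15 without wild type 3). Apart from the largest, the clusters given here are those of uniform sign among the 19.

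Of the pair that the rule leaves out, 1 was called. Both genes lie on chromosome 8, as Msr1 does, and the part of that position was not tested. Zfp868, on chromosome 8, had 298, 336, 374, 353 and 307 normalised reads in Msr1-/- livers, against 124, 90.7, 93.3 and 75.9 in wild type. The genotypes were separated by a wide gap, and the limma adjusted p of 0.000485, at a log2 difference of 1.80, reached 0.00337 at most in the fits that left out a liver. Zfp869 averaged 84.1 ± 13.9 (SD, n = 5) in Msr1-/- livers and 119 ± 14.2 (SD, n = 4) in wild type, a log2 difference of -0.51 with a limma adjusted p of 0.145. With both kept in, limma called 2 of 193 Zfp-numbered genes.

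Some values may hold reads of more than 1 gene. At least 10% of the 50-base words of 25 members recur in other genes' transcripts, and 91 members share none. Exons of 47 members overlap those of a gene on the opposite strand and exons of 15 overlap a gene on the same strand, and the strand setting of the counting is not given in the sources used here. Among the 166 members under 10% shared words, limma called 0 and edgeR 0, DESeq2 called 3 lower, and 2 were higher and 5 lower at an unadjusted p under 0.05. Of all genes tested, limma called 1.37%, edgeR 1.43% and DESeq2 3.6% as lower. At that unadjusted p, 7.3% of all genes tested were higher and 8.0% lower, so these counts do not exceed the background. Their median log2 difference was -0.053, with 39.2% positive.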

How the data were processed

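Liver RNA libraries of 9 mice were made with the TruSeq RNA Library Prep Kit v2, per the labels' protocols, and the submitters' processing notes name STAR, HTSeq, DESeq2 and the build mm10 without versions. The authors deposited a normalised signal per gene and liver, read counts divided by 1 size factor per library. Each value was a whole multiple of the library's smallest value, within 0.01 (100% of values), so whole reads were recovered, 15006773 to 18238932 per liver. All columns matched a labelled animal, and precision is limited by the variation between animals.

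Values were taken as log2(value + 1). The 12937 genes with a mean of 10 or more were tested with limma 3.58.1 (R 4.3.3, intensity trend, genotype only) and Benjamini-Hochberg adjustment over all of them. Alternatives were other pseudocounts and filters, TMM and quantile scaling, array weights, edgeR 4.0.16 and DESeq2 1.42.0 on recovered reads, a replicate block and each liver left out. The tests were checked on simulated counts with known changes. There limma recovered 48% of 2-fold and 87% of 4-fold changes, edgeR 51% and 90%, and DESeq2 66% and 93%. Of the calls, 7.53% were false for limma, 7.84% for edgeR and 19.7% for DESeq2.

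The members, lists and named-gene rule were chosen with earlier results of these data known. The rule names called members, the 6 largest and 6 smallest differences, the 5 highest per kilobase, listed known roles, members next to the mean of 50, and up to 4 genes per other list. Coordinates are from GENCODE M21 (GRCm38), matched by symbol for all 191 members, and promoters from RefSeq. KRAB A boxes and fingers were found by pattern in the longest open reading frames of GENCODE transcripts, and boxes can be missed. The KRAB pattern was widened once after the first split had been seen, and the shared-word limit of 10% and the chromosome 4 window were also set after seeing values.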

Additional observations from a re-analysis of the deposited data

Results flagged for a closer look

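Among 76 groups of livers examined for the named genes, 4 held a liver far from the others of its genotype, and chance alone sets 1 in about 20 groups apart in this way. Zfp810 stood at 185.1 in wild type 3, against 108.1 to 118.7 in the other wild-type livers. Zfp445 stood at 3415 in wild type 2, against 1207 to 1532. Zfp207 stood at 1363 in wild type 1, against 1153 to 1187. Zfp869, outside the 191, stood at 108.1 in Msr1-/- 1, against 73.14 to 83.18 in the other Msr1-/- livers. The cause was not tested for any of them.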

How the results depend on the processing

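The number of members called was 1 under both other pseudocounts, both other filters, TMM and quantile scaling, edgeR, a mean of 100 or more for members and chromosome 8 left out. It was 5 with array weights, 7 with DESeq2, 2 for members with a mean of 20 or more and 2 with Zfp868 and Zfp869 kept in. Of all genes tested, limma called 1.37% in the main fit and 4.1% with array weights, and DESeq2 called 5.98%. Leaving out 1 liver at a time gave 0 to 4 calls, 4 without wild type 3 (4.91% of all genes), with a median log2 difference of -0.115 to -0.002 and 51 to 94 positive members. Chosen after seeing the data, edgeR without wild type 3 gave 4 calls (5.12% of all genes) and 48 positive members, and DESeq2 without it 7 calls (8.26% of all genes) and 49. The median of the members was negative in each setting run, and 86 members kept their sign in all 9 fits without a liver. The Msr1 difference was -0.72 to -0.31 with 1 liver left out, its exact permutation p passing the threshold in 1 of those 9 fits. With the narrower KRAB pattern used first, 78 members had it, with a median of -0.11. With the animal number as a replicate block, limma called 0 members and 8 genes in all, and the adjusted p was 0.0596 for Zfp992, 0.105 for Zfp993, 0.167 for Zbtb4 and 0.212 for Zbtb7c. Little sign was seen that the numbers pair the animals. Deviations of same-numbered livers correlated at 0.025, -0.077, -0.1 and 0.22, and only 1 of 4 wild-type livers correlated best with its own number. Such correlations cannot exclude a pairing by number. Of 34 named members over all settings, 7 values lost limma's call, all of Zfp992, 21 gained one and 0 reversed. The cause of these changes was not tested.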
